A study of Homo sapiens with 3 samples.

Results

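Retinoid handling in oral squamous cell carcinoma (OSCC) cells was examined through 9 genes of the 19220 in the count table: STRA6, LRAT, DHRS3, RDH10, DHRS9, CRABP1, CRABP2, CYP26A1 and CYP26B1. They were chosen by name for their roles in the uptake, storage, interconversion, binding and breakdown of retinoids. STRA6 led the choice because its transcript was higher in one drug-resistant line and lower in the other, so the values below that chose it are given as a description and carry no test.

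Retinol, or vitamin A, reaches cells bound to the plasma carrier RBP4, and the membrane receptor STRA6 takes it up. Inside the cell retinol is stored as an ester, or it is oxidised to retinaldehyde and on to retinoic acid, which acts through the nuclear receptors RAR and RXR. Stratified epithelia such as the oral mucosa depend on this supply, and retinoic acid is known to hold back keratinisation there.

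RNA-seq was compared between 3 libraries, 1 per line. CAL27 is an established human OSCC line of the tongue and served as the parental line, grown without drug. CAL27/5FU cells are resistant to 5-fluorouracil (5FU), an antimetabolite that blocks thymidylate synthase, and were kept in 10 µM 5FU after selection in stepwise rising concentrations. CAL27/OXA cells were kept in 10 µM oxaliplatin (OXA), a platinum drug that binds DNA, and how this line was selected is not given in the sources used here. No line carries an engineered allele according to the labels, and whether the resistant lines were single clones is not stated. The drug in the medium and the acquired resistance cannot be told apart in this design, since both resistant lines were kept in drug and the parental line was not. With the 1 labelled library per line used here there was no replicate check of any difference, no p-value was computed, and both resistant lines were set against the same CAL27 library.

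The CAL27 library held 41786182 counts, that of CAL27/5FU held 37297713 and that of CAL27/OXA held 43455488, and 1 count stood for 0.0225 to 0.0257 CPM, that is counts scaled to library size, after scaling. Counting intervals are exact at 95% and cover counting error only. All 6 squamous markers were detected in every library, but not evenly. KRT5 had 46083 to 286124 counts and TP63 had 9759 to 29498. KRT14 had 58222 counts for the parental line, 948 for the 5FU-resistant line and 8423 for the OXA-resistant line. KRT6A followed with 36872, 6617 and 3403 counts in the same order. CDH1 and EPCAM stayed within 2-fold of the parental line in both. FPKM is a level scaled to gene length and depth. The summed FPKM of the 6 markers was 4520 in the parental library, 954 in CAL27/5FU and 1252 in CAL27/OXA. For 4 leukocyte markers it was 27.1 to 64.2 FPKM, nearly all CD68, while PTPRC, the pan-leukocyte marker, had 2 counts in the parental library and 0 in either resistant line. Endothelial markers summed to 0.437 to 2.28 FPKM and fibroblast markers to 7.51 to 14.9 FPKM. In bulk RNA, fewer cells with a transcript and less transcript per cell cannot be told apart.

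In CAL27/5FU cells, 5 of the 8 genes that could be compared were higher than in CAL27 by more than 2-fold, and none was lower by that much. These were the receptor STRA6, the binding protein CRABP2, the dehydrogenase DHRS9 and both retinoic acid hydroxylases, CYP26A1 and CYP26B1. Over all 13676 genes compared, 8.46% were higher and 6.72% were lower past 2-fold, or 1157 and 919 genes, which became 1432 and 699 with total counts alone as the scaling. In CAL27/OXA cells, 1 gene was higher than in CAL27, CYP26B1, and 2 were lower, STRA6 and DHRS3, beside 6.54% higher and 9.28% lower of all genes. Between the resistant lines, all 8 differed past 2-fold, with CYP26B1 and LRAT higher and the other 6 lower in CAL27/OXA, beside 4.18% higher and 8.38% lower of all genes. Because the genes were chosen from these contrasts, nothing is read from the distance between their shares and those of all genes. The median log2 ratio of the 8 was 1.19 in CAL27/5FU and -0.20 in CAL27/OXA against CAL27, and the medians over all genes were -0.0035 and 0.0055. The ninth gene, CRABP1, had 0 counts in all 3 libraries and gave no ratio. CYP26A1 passed the filter on low counts, a mean of at least 10, mainly through its 20 counts in CAL27/5FU.

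**Figure D1:**
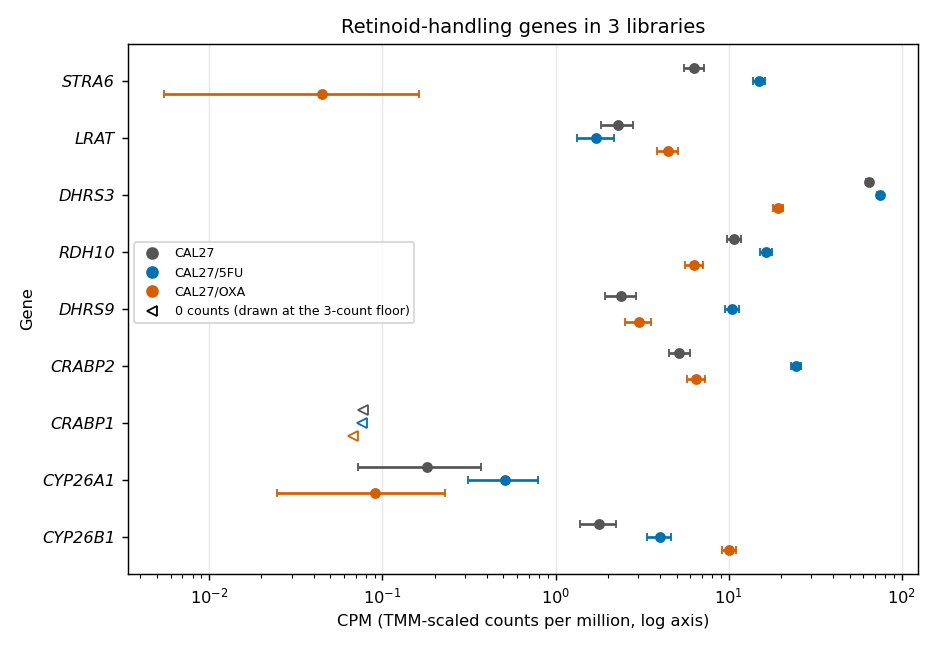
Level of each retinoid-handling gene in the 3 libraries, as TMM-scaled CPM on a log axis, with exact Poisson intervals of the count as bars and open triangles at the floor of 3 counts where a library had 0 counts. STRA6 in CAL27/OXA sits at 0.0450 CPM, far to the left of its other levels of 6.32 and 14.9 CPM, and DHRS3 is the highest gene in every library.

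STRA6, on the minus strand of chromosome 15 (74179466 to 74212267, GRCh38), encodes the receptor through which cells take up retinol from RBP4. It had 246 counts in parental cells, 585 in 5FU-resistant cells and 2 in OXA-resistant cells. As CPM this was 6.32 (interval 5.55 to 7.16), 14.9 (13.8 to 16.2) and 0.0450 (0.00545 to 0.163), so the 3 libraries did not overlap within counting error, and CAL27/5FU was the highest. The level in CAL27/5FU was 2.36-fold that in CAL27, a log2 ratio of 1.24 with an interval of 1.03 to 1.46. In CAL27/OXA the level was lower than in CAL27 by a ratio of 140.3 without a prior count, with an interval of 38.4 to 1165 that is wide because the ratio rests on 2 counts. With a prior count of 2, which draws ratios of low counts towards zero, the log2 ratio was -6.08. Between the resistant lines the log2 ratio was -7.32, which placed STRA6 at rank 13675 of 13676 genes ordered from the highest. Past 2-fold in opposite directions, higher in CAL27/5FU and lower in CAL27/OXA, were 62 genes or 0.453% of those compared, STRA6 among them by the way it was chosen.

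Reads of STRA6 could be shared with CCDC33, whose exons overlap it on the opposite strand, since the strand setting of the counting is not given in the sources used here. CCDC33 had 3 counts in parental cells, 1 in CAL27/5FU and 0 in CAL27/OXA, far below those of STRA6 in the first pair of libraries. Among the 10 nearest genes compared, 5 on each side and spanning 1.14 Mb, the median log2 ratio was -0.16 in CAL27/5FU and -0.19 in CAL27/OXA. In CAL27/5FU they ranged from -0.59 to 1.71, and 1 of them, SEMA7A at 1.71, was above STRA6, at 1.24. Their range in CAL27/OXA was -0.65 to 1.67. Of the 10, 1 was past 2-fold higher and none lower there, beside 6.54% and 9.28% of all genes. STRA6 stood below each of its neighbours in CAL27/OXA.

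The promoter of STRA6 is shown because its level spans the widest range of the 9 genes. With it is shown the only promoter, among those searched, that held a pair of closely spaced receptor half-sites. RAR and RXR bind as a pair to direct repeats of a half-site, and here 4 half-sites were searched on both strands. The letters AGGTCA form the usual half-site, and the letters AGTTCA are a common variant of it, as are the letters GGGTCA and also the letters GGTTCA. Repeats were taken with spacings of 1, 2 or 5 bases between repeats. The 250 bases before the first RefSeq start site of STRA6 (GRCh38.p14, chr15:74212260-74212509, minus strand) and before the second start site of CYP26A1 (chr10:93073643-93073892, plus strand) are given 5′ to 3′, with half-sites in capitals.
STRA6: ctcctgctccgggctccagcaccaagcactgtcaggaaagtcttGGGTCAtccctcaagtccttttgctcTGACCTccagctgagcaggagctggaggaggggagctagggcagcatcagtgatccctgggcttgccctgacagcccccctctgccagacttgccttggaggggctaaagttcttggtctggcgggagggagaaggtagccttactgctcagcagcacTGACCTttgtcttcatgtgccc
CYP26A1: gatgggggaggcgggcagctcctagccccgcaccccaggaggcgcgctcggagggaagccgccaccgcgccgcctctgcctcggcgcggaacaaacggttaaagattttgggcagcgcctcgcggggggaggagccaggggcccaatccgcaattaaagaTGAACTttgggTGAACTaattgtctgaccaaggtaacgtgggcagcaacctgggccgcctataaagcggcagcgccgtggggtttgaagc
In the 300 bases searched, from 250 before to 50 after the start, the STRA6 window held 3 half-sites and no direct repeat of those spacings. The CYP26A1 window held 1 direct repeat with a spacing of 5 bases on the minus strand, from -90 to -74, which is read in the printed strand as its reverse complement. Of 35116 promoters of the same length, 38.6% held a half-site, 0.131% a repeat of spacing 1, 0.0399% of spacing 2 and 0.0883% of spacing 5. The RefSeq set used here held 18 promoters for 8 of the 9 genes and none for RDH10, which was not searched. Of the 18, 5 were for STRA6, and 7 held a half-site. The half-sites may be part of a longer repeat, as in CYP26A1, and a match in letters is a description and not a measured site.

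LRAT, on chromosome 4 (154626945 to 154753118), encodes the acyltransferase that esterifies retinol for storage. It had 89 counts in parental cells, 67 in CAL27/5FU and 198 in CAL27/OXA, or 2.28, 1.71 and 4.46 CPM. The parental and 5FU libraries overlapped within counting error, and CAL27/OXA was above both. The log2 ratio of CAL27/OXA was 0.95 (0.60 to 1.34) against CAL27, just inside the 2-fold limit, and 1.36 (0.97 to 1.803) against CAL27/5FU. LRAT was thus highest in the line where STRA6 was lowest.

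Between retinol and retinaldehyde the traffic runs both ways. DHRS3 reduces retinaldehyde back to retinol, while RDH10 and DHRS9 oxidise retinol. DHRS3 (chromosome 1, 12567910 to 12617731) was the most abundant of the 9 genes per length in each library, at 41.1 FPKM for the parental line, 53.0 for CAL27/5FU and 13.4 for CAL27/OXA. Its counts of 2531, 2919 and 861 made its ratios precise. The log2 ratio was 0.20 (0.12 to 0.28) in CAL27/5FU, and -1.74 (-1.86 to -1.63) in CAL27/OXA, where the level was lower by 3.35-fold.

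DHRS9 (chromosome 2, 169064789 to 169096167) had 93, 409 and 134 counts, so it was high in CAL27/5FU alone, at 10.5 CPM beside 2.39 in CAL27 and 3.02 in CAL27/OXA. The difference in CAL27/5FU was 4.31-fold, a log2 ratio of 2.11 (1.802 to 2.47), whereas in CAL27/OXA the interval of -0.055 to 0.73 held zero. Its neighbours on the chromosome had a median log2 ratio of 0.32 in CAL27/5FU and 0.28 in CAL27/OXA. In each line 2 of those 10 genes were past 2-fold higher, beside 8.46% and 6.54% of all genes.

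RDH10, on chromosome 8 (73294612 to 73325281), had 418, 645 and 281 counts, the same order of lines as DHRS3 and STRA6. Its log2 ratio was 0.62 (0.44 to 0.80) in CAL27/5FU and -0.76 (-0.99 to -0.54) in CAL27/OXA, both within 2-fold, and -1.37 between the resistant lines. Against CAL27, its 10 nearest genes had a median log2 ratio of -0.23 in CAL27/5FU and -0.56 in CAL27/OXA. Each of these 10 genes was also lower in CAL27/OXA than in CAL27/5FU, which was not the case around STRA6. Their log2 ratios there ran from -2.51 to -0.019, with a median of -0.53. RDH10 lies over RPL7 on the opposite strand, without overlap of exons, and its exons overlap the antisense RNA RDH10-AS1, which was not analysed here, so reads of the pair cannot be told apart.

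Summed per length, the oxidising pair RDH10 and DHRS9 stood at 3.84 FPKM for the parental line, 10.8 for CAL27/5FU and 3.45 for CAL27/OXA. The level of DHRS3 was 10.7 times this sum in parental cells, 4.90 times in CAL27/5FU and 3.89 times in CAL27/OXA. The quotient was thus lower in both resistant lines. In CAL27/5FU the sum in its denominator was higher, and in CAL27/OXA the level of DHRS3 was lower. These are transcript levels and say nothing of enzyme activity. The quotient also leaves out the further oxidoreductases listed. Of those, RDH11, DHRS7 and AKR1B1 had a higher FPKM than DHRS3 in every library, and no other did.

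The cellular retinoic acid binding proteins CRABP1 and CRABP2 hold retinoic acid in the cytoplasm, and CRABP2 passes it to RAR. CRABP2 (chromosome 1, 156699606 to 156705816) had 202 counts in parental cells, 955 in CAL27/5FU and 289 in CAL27/OXA. At 24.3 FPKM it ranked above 81.8% of genes in the CAL27/5FU library, compared with 55.2% in CAL27. CAL27/5FU was 4.67-fold above CAL27, the largest difference of the 8 genes in that comparison, with a log2 ratio of 2.22 (2.01 to 2.46). The log2 ratio in CAL27/OXA was 0.32 (0.063 to 0.59). CRABP1 (chromosome 15, 78340324 to 78348230), which shares exon positions with AC011270.2 on the opposite strand, was not detected, and 0 counts allow up to 0.0770 CPM for the parental line, 0.0766 for CAL27/5FU and 0.0675 for CAL27/OXA.

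The cytochromes CYP26A1 and CYP26B1 break down retinoic acid, and CYP26A1 is a classical gene that retinoic acid itself induces. CYP26A1 (chromosome 10, 93073475 to 93077890) had 7, 20 and 4 counts, and part of its exons is shared with AL358613.3, which was not analysed here. At this depth CAL27 and CAL27/OXA could not be told apart, with an interval of -3.22 to 0.98 on the log2 scale, and the log2 ratio of 1.29 in CAL27/5FU had an interval of 0.21 to 2.99 that reached below 2-fold. CYP26B1 (chromosome 2, 72129238 to 72148038) had 69, 156 and 445 counts, rising from the parental to the 5FU- and then the OXA-resistant line, without overlap of the counting intervals. It was the one gene of the 9 that was higher than in CAL27 in both resistant lines by more than 2-fold, at log2 ratios of 1.15 (0.75 to 1.60) and 2.47 (2.13 to 2.89). Together the pair summed to 0.448, 1.19 and 2.35 FPKM. The direct repeat printed above thus belongs to the low-count CYP26A1, and none was found in the one promoter listed for CYP26B1.

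**Figure D2:**
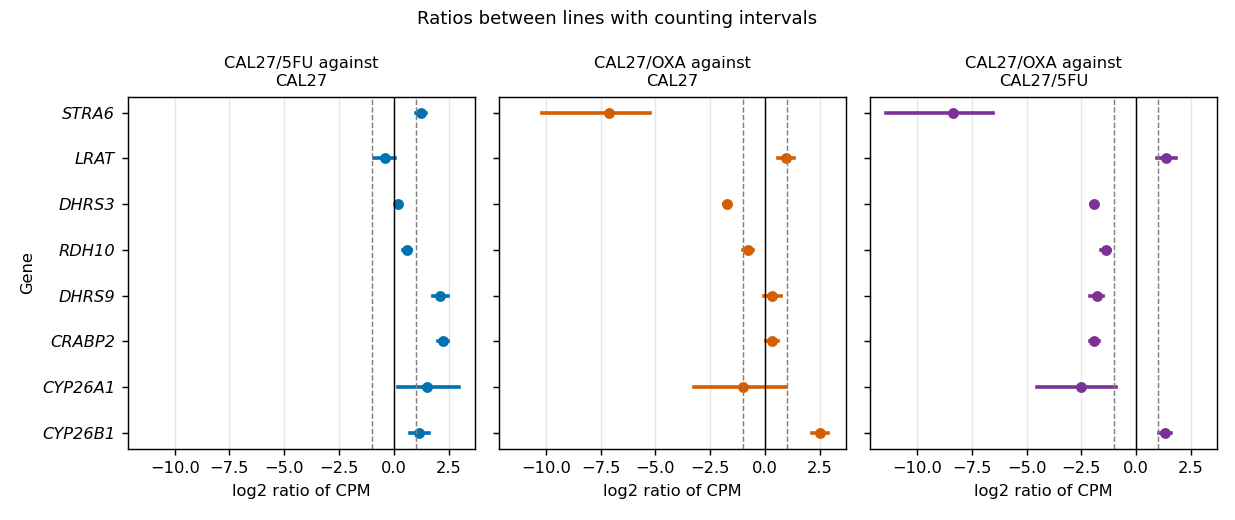
Log2 ratio of CPM without a prior count for the 8 genes compared, with exact intervals on each pair of counts as bars, in CAL27/5FU against CAL27, CAL27/OXA against CAL27 and CAL27/OXA against CAL27/5FU. Dashed lines mark 2-fold. The interval of STRA6 in CAL27/OXA runs from -10.19 to -5.26, and those of DHRS3 are narrower than its point.

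Set out by level, DHRS3 and then CRABP2 led in every library, and STRA6 moved from the fourth place in CAL27 and CAL27/5FU to the eighth in CAL27/OXA, above the undetected CRABP1. In CAL27 the order by FPKM went on with RDH10, STRA6, DHRS9, LRAT, CYP26B1 and CYP26A1, where RDH10 and STRA6, and LRAT and CYP26B1, overlapped within counting error. In CAL27/5FU the order after CRABP2 was DHRS9, STRA6, RDH10, CYP26B1, LRAT and CYP26A1, where DHRS9 and STRA6, and LRAT and CYP26A1, overlapped. In CAL27/OXA it was CYP26B1, DHRS9, RDH10, LRAT, CYP26A1 and STRA6, and the neighbours CYP26B1 and DHRS9, DHRS9 and RDH10, and CYP26A1 and STRA6 overlapped. The 9 genes together held 3655 counts in parental cells, 5756 in CAL27/5FU and 2214 in CAL27/OXA.

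**Figure D3:**
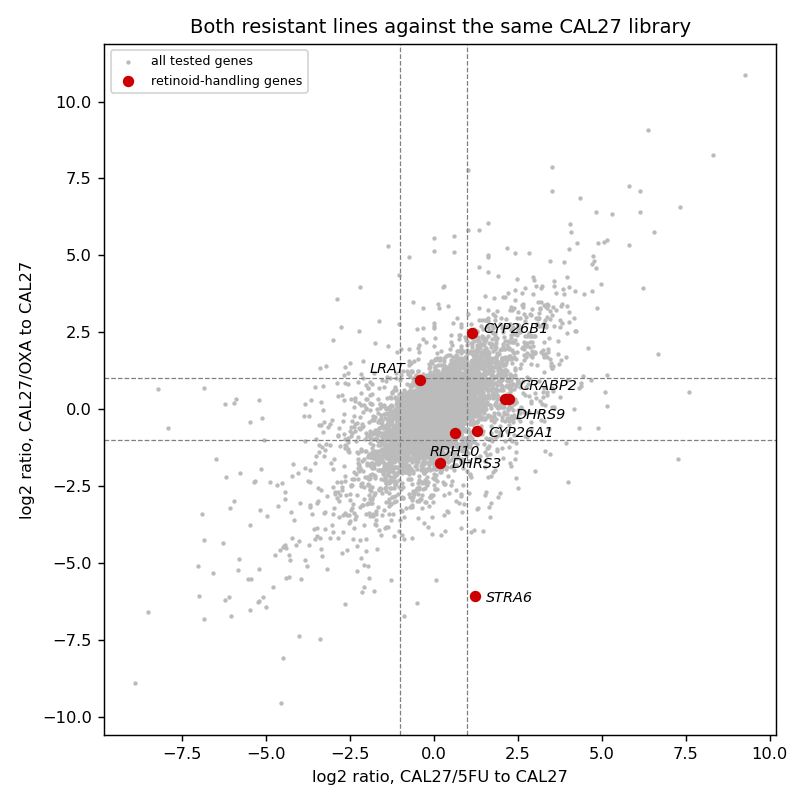
Log2 ratios of CAL27/5FU (x axis) and CAL27/OXA (y axis), both against the same CAL27 library using a prior count of 2, where grey points are the 13676 genes compared and red points the retinoid-handling genes. Dashed lines mark 2-fold. STRA6 lies to the right of the 2-fold line and at -6.08 on the y axis, CRABP2 and DHRS9 lie together at the right, and the shared library ties the axes to each other.

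The genes with the pattern most like STRA6 were sought among the 11541 genes whose mean count reached 100, by the distance between their pairs of log2 ratios over the 3 libraries. The 5 nearest were PLXDC2, CP, OLFM4, HLA-DMB and CPPED1, at distances of 1.28 to 2.21. They had 4 to 6 counts in CAL27/OXA and 108 to 751 in CAL27. Of these, OLFM4 (110, 308 and 6 counts) and HLA-DMB (108, 250 and 6 counts) were also past 2-fold higher in CAL27/5FU, at log2 ratios of 1.46 and 1.19. The other 3 were within 2-fold of CAL27 there.

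The rest of the pathway was followed in 67 further genes, of which 47 had enough counts to compare. In CAL27/5FU 7 of the 47 were higher and 9 lower than in CAL27, with a median log2 ratio of -0.25, beside 8.46% higher and 6.72% lower of all genes. With total counts alone the 9 lower became 4. In CAL27/OXA 2 were higher and 10 lower, with a median of -0.44, beside 6.54% and 9.28% of all genes. RBP4, the ligand of STRA6, had 0 counts in every library, as had TTR, its partner in plasma. Of 6 genes of uptake, transport and storage compared, none was past 2-fold in CAL27/5FU and 1 was lower in CAL27/OXA, the scavenger receptor SCARB1, with 10496, 6229 and 4364 counts and a log2 ratio of -1.46.

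Of 11 further oxidoreductases compared, 1 was lower in CAL27/5FU and 2 in CAL27/OXA, beside 6.72% and 9.28% of all genes. Log2 ratios of AKR1B10, a retinaldehyde reductase, were -1.15 and -1.87 in the 2 lines on 95, 42 and 28 counts, and SDR16C5 was at -1.22 in CAL27/OXA. Of the dehydrogenases that oxidise retinaldehyde to retinoic acid, ALDH1A3 had the highest FPKM in every library, while ALDH1A2 had 0 counts and ALDH1A1 had 31 to 102. ALDH1A3 had 4123 counts in parental cells, 20897 in CAL27/5FU and 8364 in CAL27/OXA, or 28.6, 162.5 and 55.8 FPKM, a log2 ratio of 2.33 (2.29 to 2.38) in CAL27/5FU and 0.83 in CAL27/OXA. ALDH1A1 was higher in CAL27/OXA, at 1.47. ALDH1A3 thus had its highest level in CAL27/5FU and a level in CAL27/OXA within 2-fold of CAL27. The same held for CRABP2, DHRS9, RDH10 and the low-count CYP26A1.

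Of the 7 receptor and delivery genes compared, 3 were lower in CAL27/5FU, beside 6.72% of all genes. These were RARG at a log2 ratio of -1.08, RXRA at -1.05 and PPARD, the receptor that FABP5 serves, at -1.46. RARB was the only one that was higher, at 2.10 in CAL27/5FU and 1.28 in CAL27/OXA, on 9, 45 and 28 counts. Over all genes, 8.46% and 6.54% were higher. FABP5, which also binds retinoic acid, was the only one lower in CAL27/OXA, at -1.20, beside 9.28% of all genes. RARG and RXRA lay close to 2-fold, and with total counts alone as the scaling both fell short of it.

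Of 17 genes known to be induced by retinoic acid that were compared, 6 were higher and 2 lower in CAL27/5FU, with a median log2 ratio of 0.56, beside the 8.46% and 6.72% of all genes. RARRES2, the chemerin gene, was at 2.20 on 15 counts in CAL27 and 76 in CAL27/5FU, RARB is counted here too, and HOXB4, NRIP1, HIC1 and HOXA5 were at 1.32, 1.18, 1.05 and 1.04. RET and BHLHE40 were lower, at -1.06 and -1.04, and neither was past 2-fold with total counts alone. Among the higher genes, the intervals of HOXB4 (0.39 to 2.68), HIC1 (0.70 to 1.43) and HOXA5 (0.79 to 1.30) reached below 2-fold. On FPKM with a pseudocount of 1, RARB, HOXB4, HIC1 and HOXA5 were no longer past 2-fold, and neither were RET and BHLHE40. In CAL27/OXA 1 of the 17, RARB, was higher, and 2 were lower, BHLHE40 at -1.24 and TGM2 at -1.02, with a median of -0.23, beside 6.54% and 9.28% of all genes. The call of TGM2 was lost with total counts alone and with upper-quartile factors. Between the resistant lines 4 were lower in CAL27/OXA, RARRES2 at -2.98, RARRES1 at -1.34, HIC1 at -1.23 and GPRC5A at -1.01, and none was higher, beside 8.38% lower and 4.18% higher of all genes.

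Of 5 keratinocyte genes that retinoic acid is known to repress, 3 were lower in CAL27/5FU and 4 in CAL27/OXA. Over all genes, 6.72% and 9.28% were lower. The medians of the 5 were -2.36 and -2.33, and the second is the ratio of IVL itself. Setting genes at 0 counts to their bound could not move the medians, since those bounds lie below them. TGM1, the transglutaminase of the cornified envelope, had 710, 137 and 165 counts. IVL, or involucrin, had 74, 0 and 15 counts. Against a floor of 3 counts its level in CAL27/5FU was 24.8-fold lower than in CAL27, with a counting interval that begins at 19.7-fold. KRT1 had 44, 0 and 0 counts. Against the same floor it was 14.7-fold lower in CAL27/5FU and 16.7-fold lower in CAL27/OXA, with counting intervals that begin at 11.5-fold and 13.0-fold. KRT1 and IVL passed the filter on low counts only through their counts in CAL27, which favours a call as lower. Nothing is read from their calls, or from the counts and medians of the 5 genes that include them. FLG, or filaggrin, had 72, 56 and 10 counts. KRT10 was within 2-fold in both lines, with 509, 509 and 658 counts. Of the 6 squamous markers, 4 were lower past 2-fold in CAL27/5FU and 3 in CAL27/OXA, while CDH1 (14800, 13459 and 15076 counts) and EPCAM (9428, 12457 and 10990 counts) were within 2-fold in both, and their part in the levels of these genes was not tested.

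**Figure D4:**
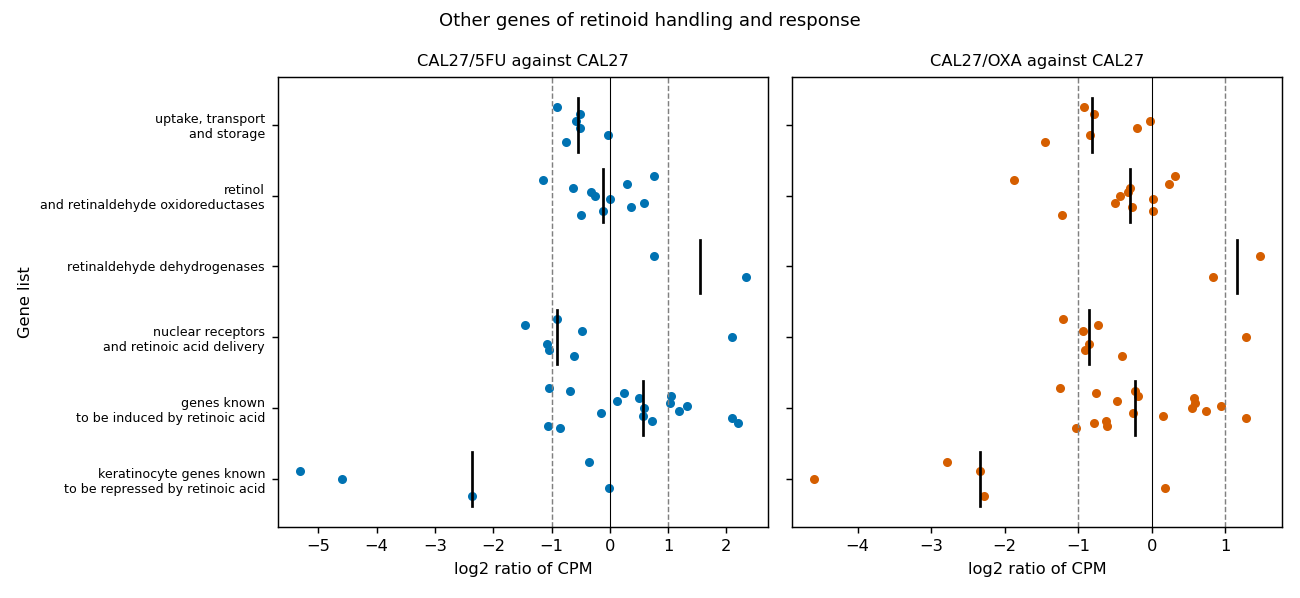
Log2 ratio of CPM (prior count 2) of the further genes of retinoid handling and response, 1 point per gene, grouped by list, with the list's median as a black bar and 2-fold as dashed lines. The left panel is CAL27/5FU and the right panel CAL27/OXA, each against CAL27, and the points below -4 belong to KRT1 and IVL, which had 0 counts in a resistant line. The medians of the retinoic-acid-induced genes are 0.56 and -0.23, and those of the repressed keratinocyte genes are -2.36 and -2.33.

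Around the other genes the neighbours gave no common direction. The median log2 ratio of the 10 nearest genes in CAL27/5FU and CAL27/OXA was 0.05 and 0.20 for CRABP2, -0.12 and -0.17 for DHRS3, 0.02 and 0.27 for CYP26A1, -0.01 and -0.02 for CYP26B1, and 0.35 and 0.11 for LRAT. In CAL27/5FU 1 of the 10 was past 2-fold higher around CRABP2, NES at 2.13, and 1 around CYP26A1, HHEX at 1.51, above CYP26A1 itself. Around DHRS3 and around LRAT 1 was higher and 1 lower there. In CAL27/OXA 2 were lower around DHRS3, 1 was higher around CRABP2 and 1 around CYP26A1, and none passed 2-fold around LRAT. Around CYP26B1 none of the 10 was past 2-fold in either line. Over all genes, 8.46% were higher and 6.72% lower in CAL27/5FU, and 6.54% and 9.28% in CAL27/OXA. Nothing is read from these counts of neighbours.

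**Figure D5:**
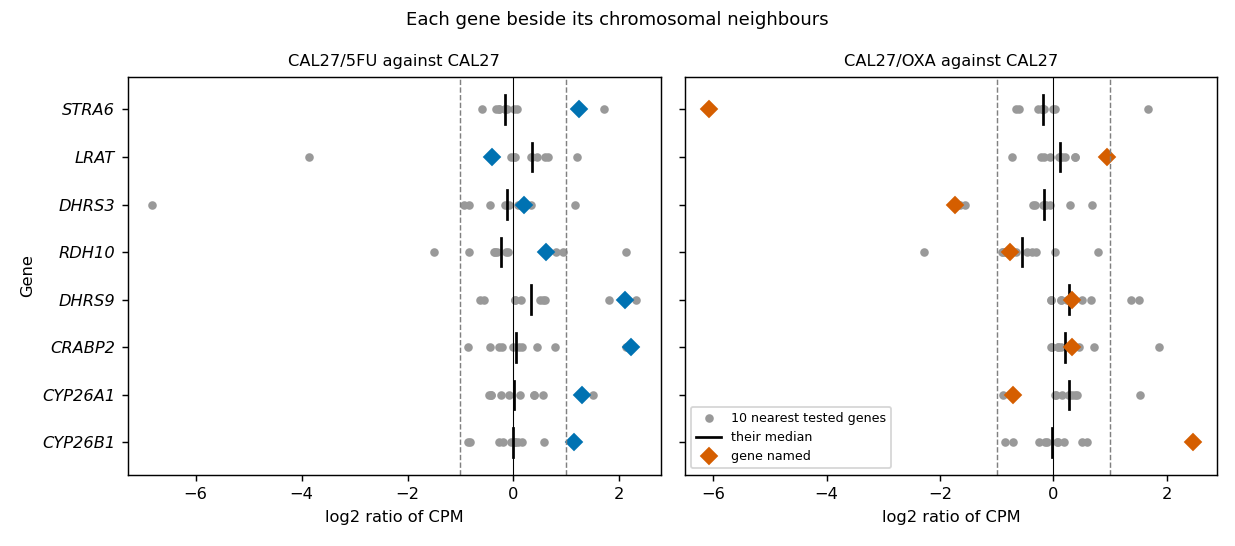
Log2 ratio of each retinoid-handling gene (diamond) beside its 10 nearest compared genes on the chromosome (grey points, median as a black bar), against CAL27, with 2-fold as dashed lines. In CAL27/OXA the STRA6 diamond is at -6.08 with its neighbours between -0.65 and 1.67, and the CYP26B1 diamond is at 2.47 above all of its neighbours.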

How the data were processed

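RNA of CAL27, CAL27/5FU and CAL27/OXA cells was sequenced on an Illumina platform, and the submitters' processing notes name CASAVA 1.8, HISAT2 2.0.5 and GRCh38. The counting tool, its strand setting and the annotation are not given in the sources used here. The deposited tables hold raw read counts per gene symbol for 19220 genes and FPKM values for 19225 genes. The authors' FPKM values are scaled by gene length and total counts, since 100% of 14367 genes gave 1 length within 0.1%. In each table, 3 further columns of per-sample values match no sample label given here and were left out of every step, although their names point to second samples of the lines.

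Counts were scaled with TMM factors (edgeR 4.0.16, R 4.3.3) over the 3 libraries and turned into log2 CPM, adding a prior count of 2. The comparison covered the 13676 genes whose mean count was 10 or more, and calls were made past 2-fold. Effective depth was such that 0 counts allow up to 0.0675 to 0.0770 CPM, taking 3 counts as the floor. Intervals are exact Clopper-Pearson (ratios) and Poisson (levels) at 95%. With the 1 labelled library per line that was used, no test across samples was made. The 9 genes and the lists were chosen with earlier results of these data known. Named genes are the 9, the listed genes past 2-fold with the further pathway members a sentence needs, and the 5 genes nearest to STRA6. Symbols were placed with GENCODE 29, and promoters come from RefSeq (GRCh38.p14). Alternatives were DESeq2 1.42.0 size factors, total counts, upper-quartile factors, prior counts of 0.5 and 5, FPKM with pseudocounts of 1 and 0.1, no filter, a mean of at least 50 counts, a 4-fold threshold and the whole interval past 2-fold.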

Additional observations from a re-analysis of the deposited data

Results flagged for a closer look

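STRA6 was flagged because its difference from CAL27 went in opposite directions in the resistant lines. The log2 ratio was 1.24 in CAL27/5FU, on 585 counts beside 246 in CAL27, and -6.08 in CAL27/OXA, on 2 counts. With the 1 labelled library per line that was used, the difference was not tested.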

How the results depend on the processing

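No paired analysis was possible with the 1 labelled library per line that was used, and the lines share only replicate number 1. Across 7 changes of scaling, prior count or unit, 0 of 168 log2 ratios of the retinoid-handling genes changed sign, and 0 of 36 calls of the further listed genes did. A prior count or pseudocount shrinks a ratio without turning it, so only the scaling could change a sign. Of the ratios of the retinoid-handling genes, that of DHRS3 in CAL27/5FU was closest to no change, at 0.20. Total counts alone, the scaling that moved the median there most, raised it to 0.37. The other ratios and the 36 calls, which lay past 2-fold, were too far from no change for these scalings to turn. Nothing is read from either 0. Over 11 alternatives, 57 of 66 counts of called genes stayed within 1.5 times. In CAL27/5FU the 5 genes higher than in CAL27 became 3 on FPKM with a pseudocount of 1, 2 past 4-fold and 3 with the whole interval past 2-fold. In CAL27/OXA the 1 gene higher became 2 with total counts alone, and the 2 lower became 1 past 4-fold. Between the resistant lines, the 2 genes higher in CAL27/OXA became 0 on FPKM with a pseudocount of 1, 0 past 4-fold and 1 with the whole interval past 2-fold, and the 6 lower became 2 past 4-fold. The pseudocount draws low FPKM together and stricter limits pass fewer genes. The log2 ratio of STRA6 ranged from 1.09 to 1.41 in CAL27/5FU and from -6.79 to -1.61 in CAL27/OXA, where the weakest value came from FPKM with a pseudocount of 1. With total counts alone the median of all genes moved to 0.17 in CAL27/5FU and 0.14 in CAL27/OXA. Of the further genes, AKR1B10, BHLHE40, RARG, RET and RXRA in CAL27/5FU and TGM2 in CAL27/OXA were no longer past 2-fold with total counts alone. Over the alternatives that moved them by more than 1.5 times, the 7 higher and 9 lower in CAL27/5FU became 3 to 4 and 2 to 5, the 2 higher and 10 lower in CAL27/OXA became 0 to 1 and 4 to 16, and the 1 higher and 7 lower between the resistant lines became 0 and 2 to 12. Over all genes, those higher and lower ranged from 404 to 1899 and from 286 to 1555 in CAL27/5FU, from 296 to 1348 and from 412 to 1925 in CAL27/OXA, and from 165 to 981 and from 352 to 1861 between the resistant lines. Depth limits CYP26A1, at 4 to 20 counts, and STRA6 in CAL27/OXA.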
